A study of Homo sapiens with 16 samples.

Results

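The genes described here encode protein kinase C (PKC) and protein kinase D (PKD) isoforms, read as mRNA on an array of human HEK293 cells. The 10 genes were the conventional PKC (cPKC) genes PRKCA and PRKCB, the nPKC (diacylglycerol-sensitive, calcium-independent) genes PRKCD, PRKCE, PRKCH and PRKCQ, the atypical PKC (aPKC) genes PRKCI and PRKCZ, and the PKDs PRKD1 and PRKD2. They were chosen by symbol, through probe sets (groups of probes for one transcript) that the platform annotation pairs with a single gene. The array held 25 such probe sets of these 10 genes, out of 44988 single-gene probe sets for 18132 genes.

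The cells were a human embryonic kidney line grown in 10% serum, and the series placed its question in how the mineralocorticoid receptor (MR) acts on AP-1 signalling. All of them were transfected for 24 h with an MR expression plasmid at 500 ng per well, so every group, vehicle included, carried the added receptor. They were then treated for 4 h in 4 groups of 4 arrays. These were 100 nM DOC (deoxycorticosterone acetate, an MR agonist) together with 10 nM PMA (phorbol 12-myristate 13-acetate, a phorbol ester), 10 nM PMA alone, 100 nM DOC alone, and vehicle. The labels number the arrays of a group as biological replicates and say nothing of what a number shares across groups. No group without the plasmid was analysed here, and the culture is 1 cell line. The array reads mRNA, so kinase protein, membrane translocation and activity were not measured.

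PKCs are serine/threonine kinases held inactive by a pseudosubstrate and released by lipid second messengers. Conventional isoforms need calcium and diacylglycerol, nPKCs need diacylglycerol but no calcium, and atypical isoforms need neither, since their C1 domain does not bind the lipid. Phorbol esters take the place of diacylglycerol at C1 domains, and PKDs, which also carry C1 domains, are phosphorylated and switched on by nPKCs.

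Sequences around the transcription starts are shown for the genes with the largest changes in opposite directions within the nPKC and atypical classes, PRKCD against PRKCQ and PRKCI against PRKCZ. Each runs from 250 bases before to 50 bases after a RefSeq start in GRCh38.p14, 5′ to 3′ on the gene's own strand. Capitals mark matches to GCGNGGGCG, a pattern of EGR factors, and to TGACGTCA, the cyclic AMP response element (CRE), searched on both strands. The PRKCD window lies at chr3:53160959-53161258 on the plus strand and the PRKCQ window at chr10:6580597-6580896 on the minus strand. The PRKCI window lies at chr3:170222174-170222473 and the PRKCZ window at chr1:2073414-2073713, both on the plus strand. The PRKCZ window sits at a start inside the gene's annotated span.
PRKCD: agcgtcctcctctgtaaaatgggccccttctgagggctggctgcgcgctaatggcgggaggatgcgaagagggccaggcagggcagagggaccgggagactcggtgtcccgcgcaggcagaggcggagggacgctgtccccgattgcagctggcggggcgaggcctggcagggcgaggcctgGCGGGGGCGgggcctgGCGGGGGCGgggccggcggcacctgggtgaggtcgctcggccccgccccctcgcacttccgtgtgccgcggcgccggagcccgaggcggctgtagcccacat
PRKCQ: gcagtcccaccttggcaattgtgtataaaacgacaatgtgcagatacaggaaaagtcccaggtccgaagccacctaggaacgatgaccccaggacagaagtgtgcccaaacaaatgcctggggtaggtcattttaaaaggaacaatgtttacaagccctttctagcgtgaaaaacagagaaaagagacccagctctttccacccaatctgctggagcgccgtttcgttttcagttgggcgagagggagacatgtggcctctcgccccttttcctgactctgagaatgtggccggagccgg
PRKCI: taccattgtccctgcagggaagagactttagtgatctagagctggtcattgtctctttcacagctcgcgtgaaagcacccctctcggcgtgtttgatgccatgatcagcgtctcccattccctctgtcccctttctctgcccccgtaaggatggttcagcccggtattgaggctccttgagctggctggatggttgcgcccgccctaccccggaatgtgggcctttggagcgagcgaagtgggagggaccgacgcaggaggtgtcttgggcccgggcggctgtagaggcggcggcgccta
PRKCZ: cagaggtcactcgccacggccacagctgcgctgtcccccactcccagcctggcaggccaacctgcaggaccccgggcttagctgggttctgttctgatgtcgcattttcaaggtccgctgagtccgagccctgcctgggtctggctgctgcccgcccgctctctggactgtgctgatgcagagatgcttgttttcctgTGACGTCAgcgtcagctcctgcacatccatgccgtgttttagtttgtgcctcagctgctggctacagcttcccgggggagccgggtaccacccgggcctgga

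The PRKCD window held 2 matches to the EGR pattern, beginning 68 and 52 bases before the start, and among all 10 windows PRKCA alone also held it, beginning 114 bases before the start. The same pattern occurred in 9.43% of 35116 RefSeq windows of this length. The CRE match in the PRKCZ window began 52 bases before the start, and 1.85% of windows held one. The AP-1 pattern TGANTCA was in 0 of the 10 windows, against 7.71% of all windows. The steroid receptor pattern, GNACA and TGTNC with any 3 bases between, was also in 0 of 10, against 0.39%. The Sp1 pattern GGGCGG, not capitalised, was in 9 of 10 windows (all but PRKCQ) against 45% of all, and it overlaps both EGR matches of PRKCD. The 10 windows were 51.3% (PRKCQ) to 81.7% (PRKD1) G and C, and the shares over all windows were not matched for base composition. A match describes letters in a window and is not evidence of a bound site.

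Signals were log2 values after robust multi-array averaging (RMA), which forces all arrays to one distribution, so a shift of all transcripts in one direction could not be seen. A gene was tested when a probe set of it reached the 40th percentile of its array on at least 4 of the 16 arrays, and it was represented by such a probe set with the highest mean. This left 12495 genes, with all 10 PKC and PKD genes among them, each at or above that percentile on 16 of 16 arrays. Of their 25 probe sets, 19 passed. Array medians lay between 4.91 and 4.96 and correlations within groups between 0.991 and 0.997. Of 16 markers of leukocytes, endothelium and fibroblasts, 15 were on the array and 3 passed the filter (PECAM1, VWF and COL1A1). No marker reached a group mean above 4.40, below every array median. Their summed linear signal was 148 to 153 in DOC plus PMA arrays, 143 to 155 in PMA arrays, 141 to 151 in DOC arrays and 136 to 145 in vehicle arrays. PECAM1, an endothelial adhesion molecule, differed by 0.30 with PMA and passed, VWF and COL1A1 did not pass, and 0 of 5 leukocyte markers passed the filter. The part of these markers in the results was not tested. The MR gene NR3C2 averaged 7.02 ± 0.18 with DOC plus PMA, 7.21 ± 0.23 with PMA, 7.38 ± 0.04 with DOC and 7.43 ± 0.13 with vehicle (SD, n = 4). It was lower with DOC plus PMA than with vehicle (-0.41) and did not pass with PMA alone (-0.22), and its part in the results was not tested. 3 arrays (replicate 2 of DOC plus PMA, replicate 2 of PMA and replicate 1 of DOC) deviated together from their groups, and results that change without them are given with that value.

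PMA changed the mRNA of 8 of the 10 genes relative to vehicle, in both directions and within the same class. PRKCD and PRKCI rose, while PRKCE, PRKCH, PRKCQ, PRKCZ, PRKD1 and PRKD2 fell. PRKCA and PRKCB did not pass the test. The threshold was a two-sided limma p, adjusted by Benjamini-Hochberg across the 12495 genes, under 0.05, and changes are log2 differences ± standard error (SE) with 4 arrays a group. Among all genes tested 47.0% passed, 17.7% higher and 29.3% lower. The median difference was -0.31 over the 10 genes and -0.04 over all genes. PMA and vehicle arrays did not overlap for 8 of the 10 genes, against 42.2% of all genes. In such bulk samples, fewer cells of a kind and less RNA per cell cannot be told apart.

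**Figure D1:**
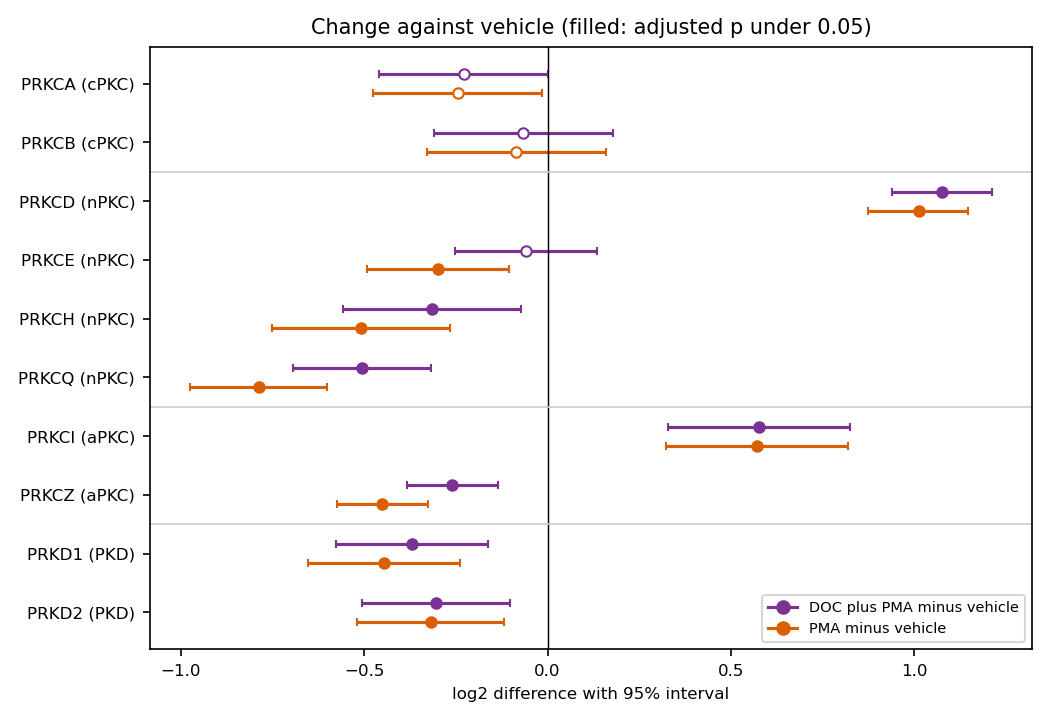
Change in log2 signal against vehicle for each gene, with 95% intervals, for DOC plus PMA (purple) and PMA (orange), 4 arrays a group. Filled points passed an adjusted p of 0.05. PRKCD and PRKCI lie right of 0 under both treatments, at 1.07 and 0.58 with DOC plus PMA and at 1.01 and 0.57 with PMA.

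Among the conventional isoforms, PRKCA encodes PKC alpha, a broadly expressed form, and PRKCB encodes PKC beta, best known from B cells. PRKCA had log2 signals of 7.92, 8.20, 7.90 and 8.23 in DOC plus PMA cells, of 7.85, 8.28, 7.95 and 8.11 in PMA cells, of 8.35, 8.23, 8.21 and 8.38 in DOC cells and of 8.13, 8.12, 8.53 and 8.39 in vehicle cells. 3 of the 4 PMA arrays lay below every vehicle array and the groups overlapped. The difference was -0.24 ± 0.11 for PMA against vehicle (adjusted p = 0.0756) and -0.23 ± 0.11 for DOC plus PMA against vehicle (adjusted p = 0.102). Without the 3 arrays that deviated together, the PMA difference of PRKCA was -0.32 and passed (adjusted p = 0.0259). It passed too without PMA replicate 2 (-0.32, adjusted p = 0.0233), vehicle replicate 1 (-0.30, adjusted p = 0.0463) or vehicle replicate 2 (-0.30, adjusted p = 0.0472).

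A dimmer probe set of PRKCA, 11717471_at, went the other way. It had 5.26, 5.17, 5.28 and 5.39 in PMA cells, against 4.85, 4.66, 5.09 and 5.13 in vehicle cells. All 4 PMA arrays were above all 4 vehicle arrays, a difference of 0.34 ± 0.09 (adjusted p = 0.00714 over all probe sets kept). Its dim probe set 11717472_at, below the filter on every array, gave 0.20 (adjusted p = 0.309 over all probe sets). The direction of PRKCA under PMA therefore depended on the probe set read. PRKCB had log2 signals of 5.00, 5.27, 5.49 and 5.38 in DOC plus PMA cells, of 5.06, 5.57, 5.41 and 5.03 in PMA cells, of 5.19, 5.30, 5.18 and 5.18 in DOC cells and of 5.29, 5.42, 5.46 and 5.23 in vehicle cells. These groups overlapped throughout, and the difference for PMA against vehicle was -0.08 ± 0.12 (adjusted p = 0.578). The dim PRKCB probe sets 11721922_at and 11721923_a_at, below the filter on every array, gave -0.24 and -0.22 and did not pass either.

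The nPKC class held both the largest rise and the largest fall among the 10 genes. PRKCD encodes PKC delta, known for roles in apoptosis and stress signalling. PRKCD had log2 signals of 7.29, 7.40, 7.25 and 7.29 in DOC plus PMA cells, of 7.21, 7.37, 7.18 and 7.21 in PMA cells, of 6.29, 6.18, 6.15 and 6.07 in DOC cells and of 6.30, 6.23, 6.16 and 6.23 in vehicle cells. Every array with PMA, alone or with DOC, lay above every array without it. PRKCD rose by 1.01 ± 0.06 with PMA (2.01-fold, adjusted p = 7.72e-10 against vehicle). Its other probe set, 11736573_a_at, rose by 0.90 ± 0.10 (adjusted p = 1.2e-06).

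PRKCQ encodes PKC theta, the isoform of the T cell synapse, and PRKCH encodes PKC eta, known from epithelia. PRKCQ had log2 signals of 5.35, 5.19, 5.19 and 5.06 in DOC plus PMA cells, of 4.76, 5.01, 5.03 and 4.88 in PMA cells, of 5.54, 5.57, 5.83 and 5.83 in DOC cells and of 5.60, 5.85, 5.69 and 5.67 in vehicle cells. All PMA arrays were below all vehicle arrays, and the DOC plus PMA arrays lay between, overlapping neither. PRKCQ fell by 0.79 ± 0.09 on the log2 scale with PMA (adjusted p = 1.12e-06), which is 1.73-fold. Its probe set 11728077_s_at fell by 1.14 ± 0.10, with 3.94, 3.99, 3.82 and 4.08 in PMA cells against 5.19, 5.08, 5.01 and 5.11 in vehicle cells. That probe set reached the filter on 0 of 4 PMA arrays and 4 of 4 vehicle arrays, so it was kept through the groups where it is high and its fall is a description only. Another probe set, 11750753_a_at, was below the filter on every array and gave -0.32 (adjusted p = 0.0523 over all probe sets).

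PRKCH had log2 signals of 5.97, 6.15, 6.19 and 5.87 in DOC plus PMA cells, of 5.64, 5.78, 6.05 and 5.93 in PMA cells, of 6.11, 6.31, 6.46 and 6.56 in DOC cells and of 6.08, 6.41, 6.52 and 6.43 in vehicle cells. PMA arrays were all below vehicle arrays, while 1 vehicle array fell among the DOC plus PMA arrays. The PMA difference of PRKCH was -0.51 ± 0.12 (adjusted p = 0.0014). Its dim probe set 11718810_at gave -0.75 ± 0.11 (adjusted p = 3.32e-05) and 11718809_a_at gave -0.19 ± 0.10 (adjusted p = 0.221), both over all probe sets. PRKCE encodes PKC epsilon, known from studies of heart and neurons. PRKCE had log2 signals of 6.20, 5.95, 5.97 and 6.17 in DOC plus PMA cells, of 5.82, 5.91, 5.77 and 5.83 in PMA cells, of 6.52, 6.11, 6.26 and 6.05 in DOC cells and of 6.02, 6.19, 6.12 and 6.21 in vehicle cells. PMA arrays were all below vehicle and all below DOC plus PMA arrays, and the other 3 groups overlapped. The PMA difference of PRKCE was -0.30 ± 0.09 (adjusted p = 0.0122), and its dimmer probe set 11736258_a_at gave 0.19 ± 0.12 (adjusted p = 0.219). That probe set reached the filter on 4 of 4 PMA arrays and 1 of 4 vehicle arrays. It was kept mostly through groups where it is higher, so its difference and the average with it are descriptions only. Averaging both gave -0.05 (adjusted p = 0.591), and PRKCE also missed the threshold with arrays aligned by cyclic loess (-0.22, adjusted p = 0.0585) or to a common median (-0.22, adjusted p = 0.0565).

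**Figure D2:**
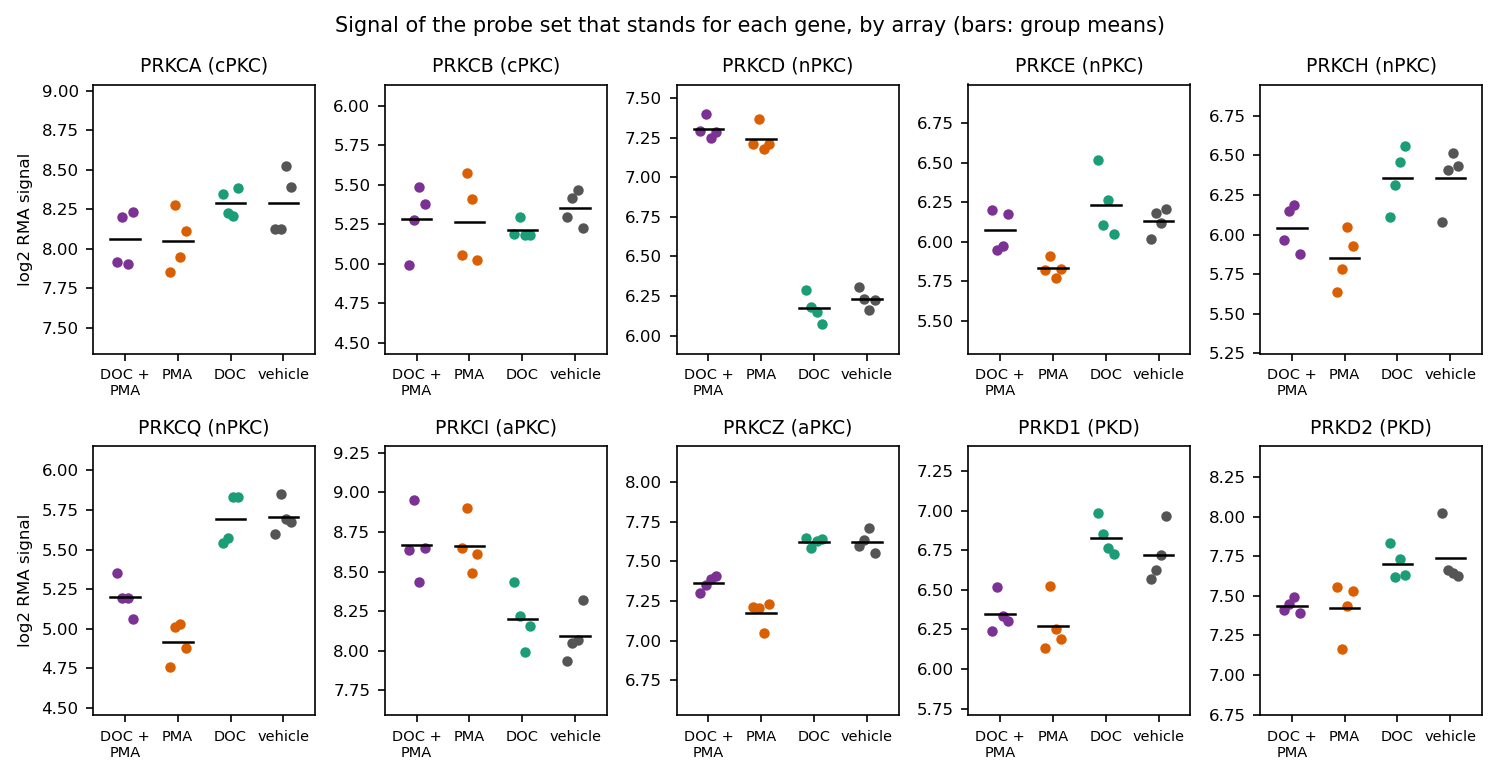
Log2 RMA signal of the probe set that stands for each gene, with 1 point per array and a bar at the mean of 4 arrays, in DOC plus PMA, PMA, DOC and vehicle cells. All panels span the same range of log2 units, and levels are not comparable between genes. In PRKCD every array with PMA lies at 7.18 or above and every array without it at 6.30 or below.

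The atypical isoforms moved in opposite directions. PRKCI encodes PKC iota and PRKCZ PKC zeta, and both act in cell polarity with the PAR proteins. PRKCI had log2 signals of 8.64, 8.95, 8.43 and 8.65 in DOC plus PMA cells, of 8.65, 8.90, 8.49 and 8.61 in PMA cells, of 8.44, 8.22, 7.99 and 8.15 in DOC cells and of 7.93, 8.05, 8.07 and 8.32 in vehicle cells. Every PMA array was above every vehicle array. PRKCI rose by 0.57 ± 0.12 with PMA (1.49-fold, adjusted p = 0.000656), and its probe set 11726772_a_at rose by 0.86 ± 0.16 (adjusted p = 0.000341). PRKCZ had log2 signals of 7.30, 7.35, 7.39 and 7.41 in DOC plus PMA cells, of 7.21, 7.21, 7.05 and 7.23 in PMA cells, of 7.65, 7.58, 7.63 and 7.64 in DOC cells and of 7.60, 7.64, 7.71 and 7.55 in vehicle cells. All PMA and all DOC plus PMA arrays were below all vehicle arrays. PRKCZ fell by 0.45 ± 0.06 on the log2 scale with PMA (adjusted p = 6.2e-06), and its other probe sets fell by 0.40 and 0.49.

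Both PKD genes fell with PMA. PRKD1 and PRKD2 encode PKD1 and PKD2, which act at the trans-Golgi network and phosphorylate class IIa histone deacetylases. PRKD1 had log2 signals of 6.24, 6.51, 6.33 and 6.31 in DOC plus PMA cells, of 6.13, 6.52, 6.25 and 6.19 in PMA cells, of 6.98, 6.85, 6.76 and 6.73 in DOC cells and of 6.57, 6.63, 6.72 and 6.96 in vehicle cells. All arrays with PMA were below all vehicle arrays. The PMA difference of PRKD1, which had a single probe set, was -0.45 ± 0.10 (adjusted p = 0.00118). PRKD2 had log2 signals of 7.41, 7.45, 7.50 and 7.39 in DOC plus PMA cells, of 7.55, 7.17, 7.43 and 7.53 in PMA cells, of 7.83, 7.62, 7.73 and 7.63 in DOC cells and of 8.03, 7.66, 7.65 and 7.62 in vehicle cells. PMA arrays were all below vehicle arrays, of which replicate 1 stood above the other 3. PRKD2 fell by 0.32 ± 0.10 on the log2 scale with PMA (adjusted p = 0.0106). Its probe set 11740411_a_at fell by 0.27 (adjusted p = 0.0243), and 11756959_x_at gave -0.25 without passing (adjusted p = 0.0564).

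Over the 19 probe sets of these genes above the filter, 5 were higher and 10 lower with PMA than with vehicle. Over all 30613 probe sets kept the shares were 16.5% higher and 24.5% lower. Probe sets of a gene had the same sign wherever a gene had several, except in PRKCA and PRKCE. Probe sets of 1 gene read the same RNA and are not replicates, and where in the transcripts they lie was not analysed.

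**Figure D3:**
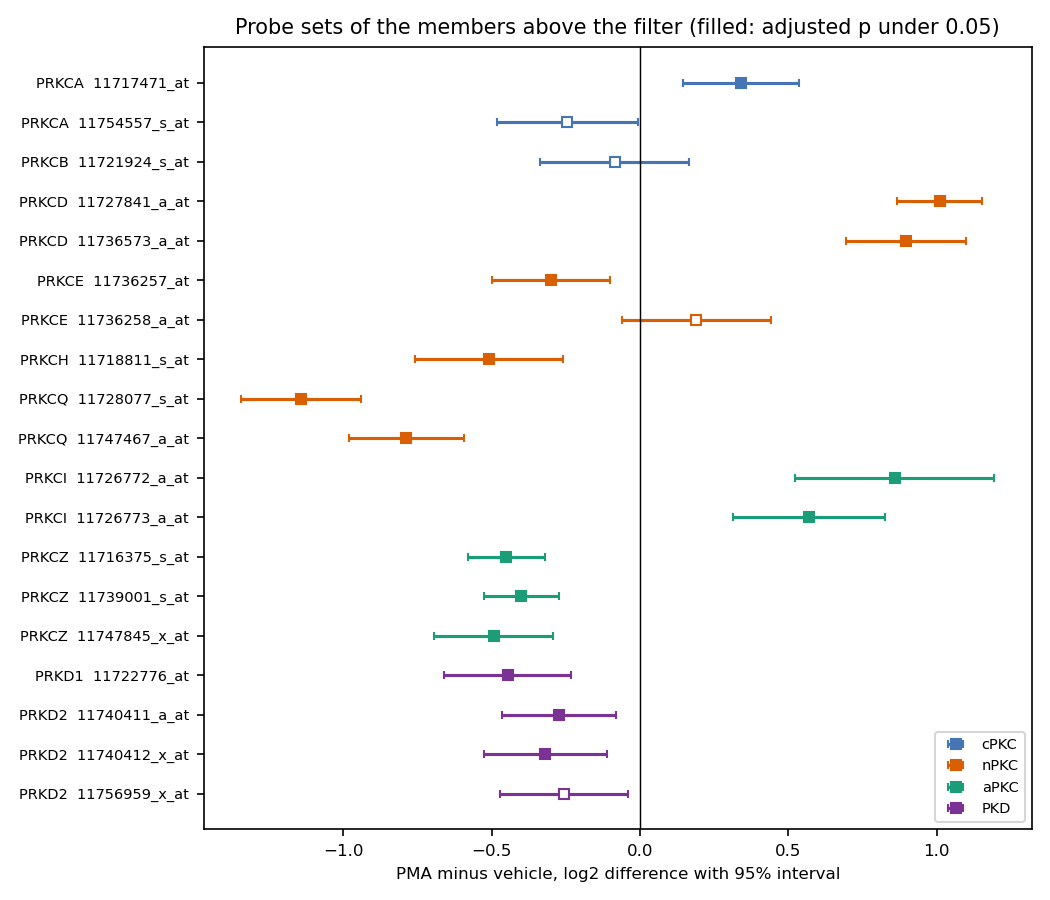
PMA minus vehicle in log2 signal, with 95% intervals, for the 19 probe sets above the filter, coloured by class and filled where the adjusted p was under 0.05. The PRKCA probe sets lie on opposite sides of 0 (0.34 and -0.24), as do those of PRKCE (-0.30 and 0.19).

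Whether genes of a class changed unequally was tested on the difference between their log2 signals within each array. The test was an exact two-sided permutation of PMA and vehicle labels over 70 splits, whose smallest possible p is 0.0286. Of 9 pairs within classes, 5 reached it. PRKCD exceeded PRKCE by a difference of changes of 1.31, PRKCH by 1.52 and PRKCQ by 1.80. PRKCE exceeded PRKCQ by 0.49, and PRKCI exceeded PRKCZ by 1.02. All PMA arrays already lay above vehicle for PRKCD and PRKCI, and below it for PRKCE, PRKCH, PRKCQ and PRKCZ. In the pairs of a rising with a falling gene the smallest p was thus fixed in advance and adds nothing to those results. Of these 5 pairs only that of PRKCE and PRKCQ was open. Adjusted within each class these p-values were 0.0429 for the nPKC pairs and 0.0286 for the atypical pair (exact test). Adjusted over all 9 pairs they were 0.0514 and missed 0.05. The other pairs gave 0.0571 for PRKCH and PRKCQ, 0.2 for PRKCE and PRKCH, 0.314 for PRKCA and PRKCB and 0.6 for PRKD1 and PRKD2, by the exact test before adjustment.

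With DOC plus PMA against vehicle, 2 of the 10 genes were higher and 5 lower, where 17.5% and 26.3% of all genes were. PRKCD rose by 1.07 ± 0.06 (adjusted p = 3.62e-10) and PRKCI by 0.58 ± 0.12 (adjusted p = 0.000651). PRKCQ fell by 0.51 ± 0.09 (adjusted p = 0.000155), PRKD1 by 0.37 ± 0.10 (adjusted p = 0.00525) and PRKCZ by 0.26 ± 0.06 on the log2 scale (adjusted p = 0.00157). PRKD2 fell by 0.30 ± 0.10 (adjusted p = 0.0151), but its difference was -0.21 without vehicle replicate 1 (adjusted p = 0.0643). PRKCH was lower by a difference of -0.31 ± 0.12 (adjusted p = 0.034), which missed the threshold in both other scalings and when any one of 5 single arrays was left out. PRKCE did not pass (-0.06 ± 0.09, adjusted p = 0.637). This comparison shares its vehicle arrays with the one for PMA alone.

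Against DOC alone, DOC plus PMA again had 2 genes higher and 5 lower, where 15.7% and 26.9% of all genes were. PRKCD was higher by 1.14 ± 0.06 and PRKCI by 0.47 ± 0.12. PRKCQ differed by -0.49, PRKD1 by -0.48, PRKCH by -0.31, PRKD2 by -0.27 and PRKCZ by -0.26. The calls of PRKCH (adjusted p = 0.0348) and PRKD2 (adjusted p = 0.031) were each lost when any one of 5 single arrays was left out, and that of PRKD2 also without the 3 arrays that deviated together (-0.23, adjusted p = 0.0624). As a mean over both levels of DOC, the PMA effect passed for 9 genes, 2 higher and 7 lower, where 21.7% and 35.5% of all genes were. PRKCA joined the lower genes there (-0.24 ± 0.08, adjusted p = 0.0142), but its sign turned with its probe sets averaged (0.06, adjusted p = 0.415), and the call was lost with a common median (-0.17, adjusted p = 0.0639). The call of PRKCE (-0.23 ± 0.06, adjusted p = 0.00542) was lost with averaged probe sets (-0.06, adjusted p = 0.334).

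No PKC or PKD gene passed for DOC against vehicle, where 0.120% of all genes did. The 10 differences ran from -0.14 (PRKCB) to 0.11 (PRKD1). An unadjusted p under 0.05 in limma was seen in 0 of 10, and in 386 of all 12495 genes tested. The 95% intervals show the precision, from -0.20 to 0.08 for PRKCD and from -0.38 to 0.11 for PRKCB.

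DOC added to PMA gave no call either, where 0.384% of all genes passed, and the largest differences were in PRKCQ, PRKCE, PRKCH and PRKCZ. PRKCQ was 0.28 ± 0.09 higher in DOC plus PMA than in PMA cells (unadjusted p = 0.0055 in limma, adjusted p = 0.468). PRKCZ was 0.19 ± 0.06 higher (unadjusted p = 0.00477 in limma, adjusted p = 0.439) and PRKCE 0.24 ± 0.09 higher (unadjusted p = 0.0174 in limma, adjusted p = 0.896). In each of these 3 genes all 4 DOC plus PMA arrays were above all 4 PMA arrays, as in 2.00% of all genes. The share of all genes higher at an unadjusted p under 0.05 was 2.98%. PRKCH differed by 0.19 (unadjusted p = 0.11 in limma), and the other 6 differences lay between 0.005 and 0.075. The PMA arrays stand in this comparison and in PMA against vehicle with opposite sign, so low PMA values alone would give both a fall with PMA and a higher signal with DOC plus PMA.

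The second probe set of PRKCQ differed by 0.37 ± 0.10 (adjusted p = 0.289 over probe sets), with 4.22, 4.56, 4.05 and 4.47 in DOC plus PMA cells against 3.94, 3.99, 3.82 and 4.08 in PMA cells. With the kept probe sets of each gene averaged, that one included, PRKCQ differed by 0.32 and passed (adjusted p = 0.0146). The second probe set reached the filter on 3 of 4 DOC plus PMA, 0 of 4 PMA, 4 of 4 DOC and 4 of 4 vehicle arrays. It was thus dim in all PMA arrays, and this call is a description only. The other PRKCZ probe sets gave 0.13 and 0.14, with groups that overlapped. That of PRKCE gave -0.07.

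**Figure D4:**
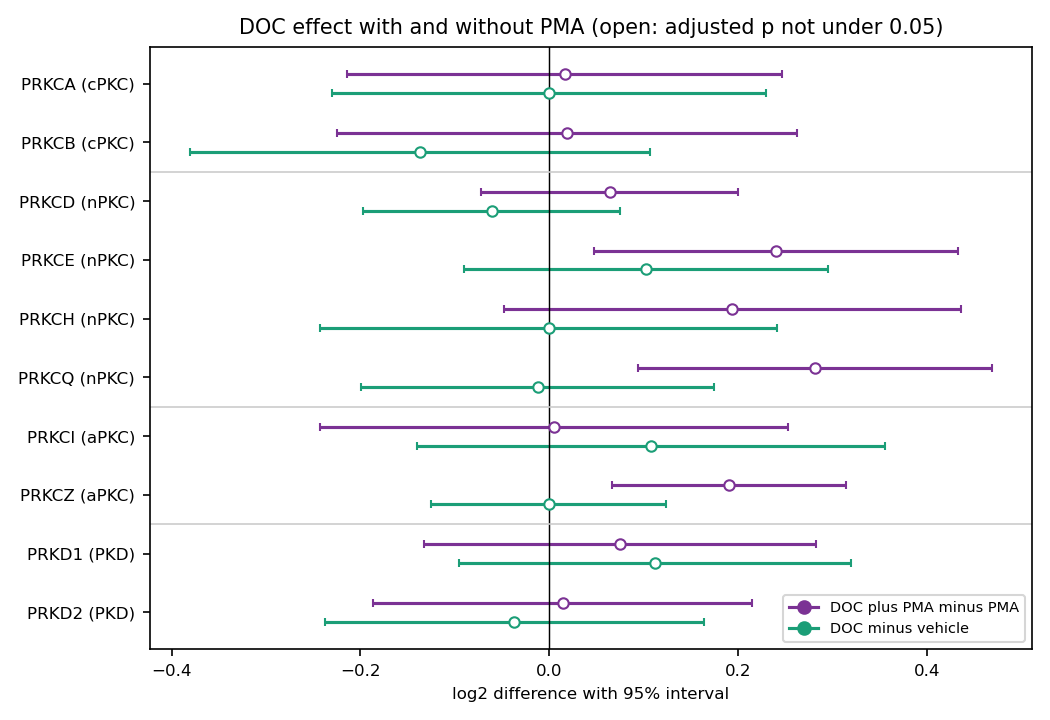
DOC effect in log2 signal with 95% intervals, as DOC plus PMA minus PMA (purple) and DOC minus vehicle (green). Open points did not pass an adjusted p of 0.05, which holds for all 20. The unadjusted intervals for PRKCE, PRKCQ and PRKCZ lie above 0 with PMA and cross 0 without it.

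The interaction, which is the DOC effect with PMA minus that without, passed for none of the 10 genes and for 0.0880% of all genes. It was 0.29 ± 0.13 for PRKCQ (unadjusted p = 0.0316 in limma) and 0.19 ± 0.08 for PRKCZ (unadjusted p = 0.0346 in limma), with an adjusted p of 1 for both. These were 2 of the 10 genes positive at an unadjusted p under 0.05, against 1.50% of all genes. For PRKCE it was 0.14 ± 0.13 (unadjusted p = 0.301 in limma). A DOC effect that differs with PMA was not shown for any of them. The mean DOC effect over both levels of PMA passed for 0 of 10 genes, with 0.432% of all genes passing, and 3 of 10 were higher at an unadjusted p under 0.05, against 3.46% of all genes. It was 0.17 for PRKCE (unadjusted p = 0.0167 in limma), 0.13 for PRKCQ (unadjusted p = 0.0469 in limma) and 0.09 for PRKCZ (unadjusted p = 0.0358 in limma).

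Other genes of the pathway were read from 8 lists with 96 genes, of which 74 were tested. PMA against vehicle gave 14 higher and 21 lower among these 74, shares near those of all genes (17.7% higher and 29.3% lower). Counts of this size in each list are descriptions to be read against those shares. Of 3 close relatives tested 2 were lower and 0 higher, among them PRKD3, the remaining PKD, which differed by -0.25. Of other C1 proteins that bind phorbol esters, 3 of 7 fell and 0 rose, where 29.3% of all genes fell. They were RASGRP1, a Ras exchange factor (-0.42), UNC13B, a vesicle priming protein (-0.28), and CHN1, a GTPase-activating protein for Rac (-0.20).

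Phospholipases C release diacylglycerol and diacylglycerol kinases remove it. Of 9 phospholipase C genes tested 4 fell and 0 rose, against 29.3% and 17.7% of all genes, namely PLCE1 (-0.56), PLCG2 (-0.42), PLCB1 (-0.39) and PLCG1 (-0.36). Of 7 diacylglycerol kinase genes 1 rose and 0 fell, against the same shares, and it was DGKH. DGKH averaged 4.53 in PMA cells and 2.73 in vehicle cells, a difference of 1.80, and its vehicle signal is among the dim ones. It passed the filter through arrays with PMA, so its call follows in part from the filter.

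Genes for PKC maturation and turnover gave 4 higher and 5 lower of 15 tested, close to the 17.7% and 29.3% of all genes. PHLPP2, a phosphatase of the PKC hydrophobic motif, was higher by 0.49, and PPP2CB, a catalytic subunit of PP2A, by 0.29. RNF31, a ubiquitin ligase, differed by -0.43 and MLST8, a subunit of the mTOR complexes, by -0.39. Of 12 anchors and scaffolds 5 rose and 3 fell, against 17.7% and 29.3% of all genes. SDC4, a membrane proteoglycan that binds PKC alpha, rose by 2.76, and AKAP12, an anchor of PKC and PKA, by 0.57. Of the polarity partners of the atypical PKCs, PARD6B rose by 0.93 and PARD6A differed by -0.86.

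Of 19 substrate genes 3 rose and 4 fell, no larger shares than the 17.7% and 29.3% of all genes. VASP, an actin regulator, rose by 2.06 and HDAC5, a deacetylase that PKD exports from the nucleus, by 0.68. SSH1, a cofilin phosphatase, differed by -0.83 and ADD2, a membrane skeleton protein, by -0.61. Of 2 tested inhibitors of protein phosphatase 1 that PKC phosphorylates, PPP1R14C rose by 0.26. Of these 74 genes 0 passed for DOC plus PMA against PMA in limma, where 0.384% of all genes did. An unadjusted p under 0.05 was seen in 0 of the 74, against 544 of all 12495 genes tested. The gene with the smallest p of each list was PKN2 (-0.04), UNC13B (-0.06), DGKH (-0.29), PLCG2 (0.12), USP20 (0.12), AKAP5 (-0.23), MARCKS (-0.10) and PPP1R14C (0.04), each at an adjusted p of 1.

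**Figure D5:**
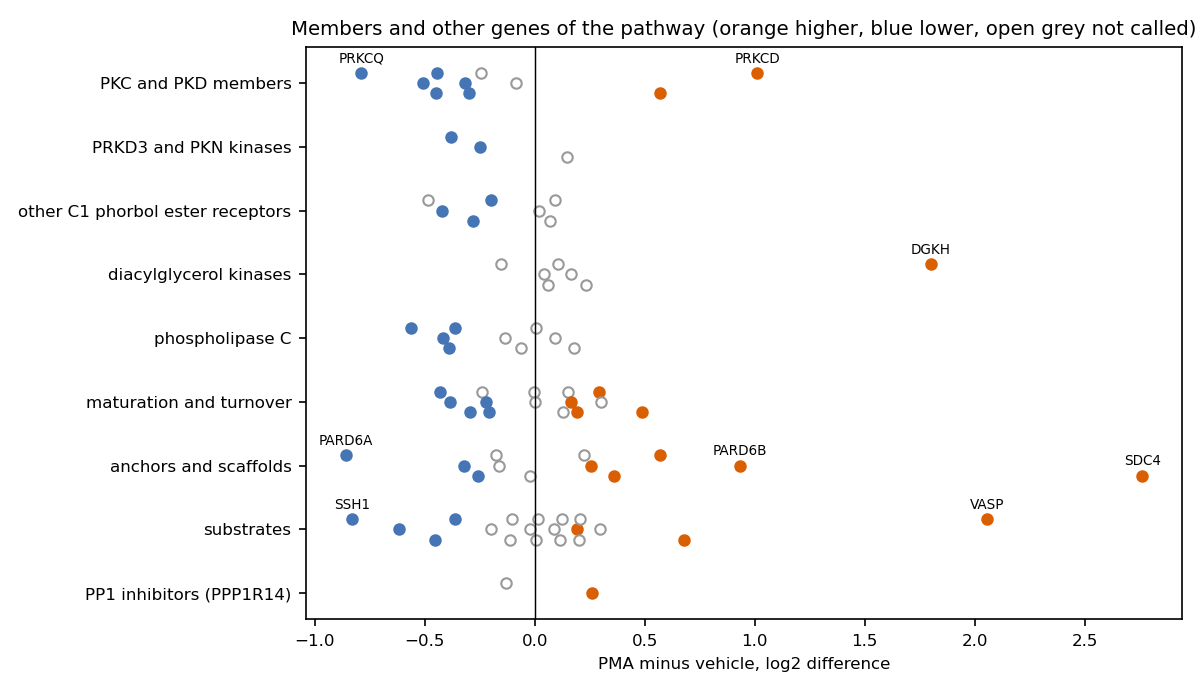
PMA minus vehicle in log2 signal for the 10 PKC and PKD genes (top row) and the tested genes of 8 pathway lists, 1 point per gene, orange where higher, blue where lower and open where the adjusted p was not under 0.05. Vertical offsets within a row only separate points. SDC4 (2.76), VASP (2.06) and DGKH (1.80) lie farthest to the right.

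The 3 genes whose log2 signals correlated most with each PKC or PKD gene over the 16 arrays are given as a description. The arrays fall into those with and without PMA, so the Pearson r includes a shared difference between these groups. For PRKCD they were EPHA2 (0.995), PGBD5 (0.995) and TFRC (0.993), which changed by 3.22, 1.65 and 0.97 with PMA. For PRKCQ they were TLE1 (0.957), MLYCD (0.953) and DHRS13 (0.953), and for PRKCH FAM229B (0.914), EAPP (0.907) and PLAAT1 (0.904). For PRKCE they were PLD1 (0.860), TIGD3 (0.849) and CRISPLD1 (0.843).

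For PRKCI the closest were LCMT2, ITPRID2 and DNMBP (0.969 each), and for PRKCZ ZNF784 (0.976), KLHL22 (0.963) and TMUB2 (0.959). For PRKD1 they were ANK3 (0.977), RETREG3 (0.965) and ARNT (0.963), and for PRKD2 CCM2 (0.897), MANBA (0.896) and SQOR (0.893). For PRKCA they were SLC30A7 (0.948), PAK2 (0.921) and NLGN2 (0.917), and for PRKCB PALM3 (0.832), OPRM1 (0.793) and MPIG6B (0.761). Correlations of deviations from the group means, which leave out the treatment, were highest for the PRKCI genes (0.901 to 0.932), the PRKCA genes (0.908 to 0.922) and the PRKD1 genes (0.851 to 0.905). They were lowest for the PRKCQ genes (0.476 to 0.574), and those of the other 6 sets lay between 0.593 and 0.854. The genes were picked by an r over the same arrays that includes these deviations. The values therefore follow in part from that choice and are a description only.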

How the data were processed

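Per the labels' protocols, 100 ng of total RNA was amplified and biotin-labelled with an Affymetrix kit. The authors deposited log2 signals, which came from RMA as run in Affymetrix Expression Console according to the submitters' processing notes (versions not given in the sources used). The table held 49293 probe sets, 16 arrays and 0 unused value columns. Arrays give no read depth, and their number limits the precision.

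Group means were fitted to all 16 arrays (lmFit, eBayes, limma 3.58.1, R 4.3.3). Of the 12495 genes 7495 had several kept probe sets. All 10 members were named, with up to 4 called genes of largest change per list, the gene of smallest p for DOC plus PMA against PMA, and 3 genes of highest correlation, except 1 gene that is not reported here. The members and lists were chosen with earlier results of these data known. The fit was tested on simulated data in which 200 of 12495 genes differed between DOC plus PMA and PMA. It recovered 8% of log2 changes of 0.2, 32% of those of 0.3, 86% of those of 0.5 and 100% of those of 1. The fit behind the reported values used no pairing of arrays. In an alternative fit, replicate numbers were taken to pair DOC plus PMA with PMA arrays, from the data alone. Deviations correlated at 0.157 to 0.549 in 4 of 4 same-number pairs of these groups. An unlike-number pair, DOC plus PMA replicate 3 with PMA replicate 4, reached 0.335, so the pairing is uncertain. Other groups had at most 3 of 4 same-number pairs above 0.1. Protein sequences were not used here.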

Additional observations from a re-analysis of the deposited data

Results flagged for a closer look

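Dixon's test was run on the 4 arrays of each group for the 19 probe sets above the filter, 76 groups in all, and 6 held an array far from the other 3. Chance alone sets about 1 in 20 groups apart. For PRKD2, vehicle replicate 1 was high on probe set 11740412_x_at, at 8.03 against 7.62 to 7.66 in the other vehicle arrays, and on 11740411_a_at, at 7.79 against 7.39 to 7.44. On the second of these, DOC plus PMA replicate 4 was low, at 7.21 against 7.28 to 7.29. Without vehicle replicate 1, PRKD2 no longer passed for DOC plus PMA against vehicle (-0.21, adjusted p = 0.0643 in limma), and without DOC plus PMA replicate 4 it no longer passed for DOC plus PMA against DOC (-0.25, adjusted p = 0.0723 in limma). Both refits read 11740412_x_at, on which DOC plus PMA replicate 4 was not set apart. The call against DOC was also lost without DOC plus PMA replicate 1 or 2 or DOC replicate 1 or 3.

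PMA replicate 3 was low for PRKCZ on 11716375_s_at, at 7.05 against 7.21 to 7.23. DOC replicate 2 was high for PRKCB on 11721924_s_at, at 5.30 against 5.18 to 5.19. Vehicle replicate 4 was high for PRKCE on 11736258_a_at, at 4.27 against 4.04 to 4.05. The other results for PRKCZ, PRKCB and PRKCE kept their side of the threshold without these arrays. The PRKCE refits read its brighter probe set, on which vehicle replicate 4 was not set apart.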

How the results depend on the processing

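Each of the 80 combinations of a member and a comparison was recomputed under 24 to 27 alternatives. These were other filters, averaged probe sets, cyclic loess, a common median, array weights, a robust prior, only the arrays compared, the replicate block, each array left out, and, chosen after the data were seen, omission of the 3 arrays that deviated together. Of 31 calls 24 kept their direction and side of the threshold in every alternative that gave a value, and of 49 values without a call 47 did. Averaging the probe sets gave 1 call for DOC plus PMA against PMA (PRKCQ, 0.32), against 0 otherwise, and turned the mean PMA effect of PRKCA to 0.061. The PRKCQ average includes a probe set that was kept through the groups where it is high. The replicate block changed no count of calls among the 10 genes (8 with PMA relative to vehicle, 0 for DOC plus PMA relative to PMA).

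The number of the 10 genes called stayed between 7 and 9 for PMA against vehicle, and between 5 and 7 for DOC plus PMA against vehicle and against DOC. Under cyclic loess and a common median, PRKCE lost its call with PMA, and PRKCH and PRKD2 lost theirs for DOC plus PMA against vehicle (adjusted p = 0.0529 to 0.0902) and against DOC. The single arrays whose omission ended a call against DOC were DOC plus PMA replicates 1 and 4 and DOC replicates 2, 3 and 4 for PRKCH, and DOC plus PMA replicates 1, 2 and 4 and DOC replicates 1 and 3 for PRKD2. For PRKCH against vehicle they were DOC plus PMA replicates 1 and 4 and vehicle replicates 2, 3 and 4. The cause was not tested. Scaling also moved the share of higher genes among all called with PMA, which was 37.6% as deposited, 46.5% with cyclic loess and 52.2% with a common median, with 2 higher and 6, 5 and 5 lower among the 10 genes. With DOC plus PMA against vehicle it was 39.9%, 48% and 53.8%, with 2 higher and 5, 3 and 3 lower. With 4 arrays a group the SE of a difference between 2 groups was 0.06 (PRKCZ) to 0.12 (PRKCI).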

Other observations

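Genes known from HEK293 cells were all above the filter. Of 8 such genes 5 were higher and 1 lower with PMA than with vehicle, where 17.7% and 29.3% of all genes were. NEFM, a neurofilament subunit, rose by 2.51, LHX1, a kidney developmental factor, by 0.83, the keratins KRT8 and KRT18 by 0.79 and 0.77, and the intermediate filament gene INA by 0.28. NEFL, another neurofilament subunit, differed by -0.45.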
